A study of Mus musculus with 21 samples.

Results

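The first 8 hours after day 4 of an embryonic stem cell to motor neuron (MN) differentiation were examined by comparing untreated libraries collected at D4 with untreated libraries collected 8 hours later, at D4H8. Members were chosen by label alone, as the RNA-seq samples of these 2 stages that had not received the H3K27 demethylase inhibitor GSKJ4, which gave 6 of the 21 libraries of the series (3 per stage). All were labelled WT and came from C57BL/6 mouse embryonic stem cells, which had been grown on mitotically inactivated fibroblasts before embryoid bodies were formed. The bodies received 1 µM all-trans retinoic acid, which caudalizes, and 0.5 µM SAG, an agonist of the Sonic hedgehog pathway that ventralizes. DAPT, an inhibitor of the γ-secretase that cleaves Notch receptors, was used at 5 µM from D4, so that D4H8 followed its addition. Whether D4 material was harvested just before or just after that addition was not given, and no 8-hour library without DAPT was compared here, so differentiation time and DAPT cannot be told apart. Polyadenylated RNA was sequenced, and levels are given as FPKM (fragments scaled by exon length and library size) as deposited, in the order of replicates 1, 2 and 3. The value after ± is the SE for a log2 fold change and the SD over 3 libraries for a level.

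At these stages the culture passes through the steps by which the ventral spinal cord makes MNs. Progenitors of the pMN domain express the bHLH repressor Olig2 and are held in cycle in part by Notch, whose activated receptors switch on Hes repressors. Cells that escape this restraint raise proneural bHLH factors such as Neurog2, display Delta ligands to their neighbours, leave the cell cycle, and then switch on the LIM homeodomain factors Isl1, Lhx3 and Lhx4 and the neuronal cytoskeleton.

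The 3 D4 libraries held 16231085 to 22725856 counts and the 3 D4H8 libraries 14982115 to 34383842. Correlations of log2 CPM (counts scaled by library size) between libraries were 0.976 to 0.983 within D4, 0.977 to 0.986 within D4H8 and 0.957 to 0.98 between the stages. Replicate 1 stood apart at both stages: it was the deepest library of each, and of the genes called higher below, 84.5% had their highest D4H8 value in D4H8 replicate 1 (38.4% of all tested genes) and 54.7% their lowest D4 value in D4 replicate 1 (35.6%). Mitochondrial genes took 4.08% of counts in D4 replicate 1 and 1.65% to 2.08% in the other 5 libraries, and the part of this in the results was not tested. Results are therefore also given without both replicates 1. That fit has fewer libraries per stage and lacks the deepest of each, so a call can also be lost through fewer data. No other pair of libraries was left out for comparison, so a lost call does not by itself show dependence on replicate 1. The labels call the samples biological replicates, and the study describes its RNA-seq as 3 independent experiments per stage. In such bulk RNA, more cells of a type and more RNA per cell cannot be told apart.

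Over the 8 hours, most of the called changes were upward. Of 17519 genes tested with edgeR's quasi-likelihood test, 767 (4.38%) changed, of which 711 (4.06% of those tested) were higher at D4H8 and 56 (0.32%) were lower at a Benjamini-Hochberg adjusted p under 0.05, so that 92.7% of called genes were higher. The genes that rose had a median log2 fold change of 1.36 (quartiles 0.91 and 2.17), and 211 of them rose by at least 2 log2 units. The genes that fell moved less, with a median of -0.65, and 16 of the 56 fell by 1 log2 unit or more. At an unadjusted p under 0.05 in the same test, 1902 genes were higher and 992 lower, so the upward share depends on the threshold. The median over all tested genes was -0.02. All 3 D4H8 libraries lay above all 3 D4 libraries for 706 of the 711 genes, against 14.2% of all tested genes, and the 56 lower genes showed the reverse separation, against 11.4%. The genes were called on these same libraries, which favours such separation, so it is a description and not further support. Without both replicates 1, 246 genes were called higher and 2 lower. In that fit 243 of the 711 were still called. All 711 and all 56 kept their direction, but this was largely fixed in advance. Genes whose stages are separate can hardly change direction when libraries are left out.

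**Figure D1:**
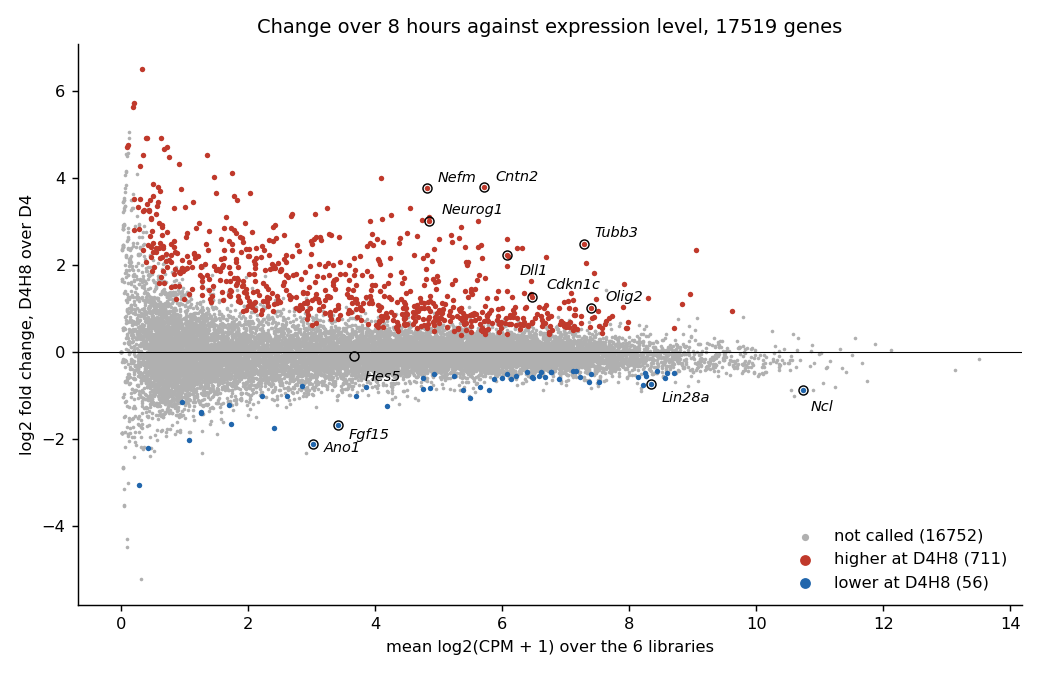
Each point is 1 of 17519 tested genes, with its mean log2(CPM + 1) over the 6 libraries on the horizontal axis and its log2 fold change (D4H8 over D4) on the vertical axis. Red marks the 711 genes called higher, blue the 56 called lower and grey the rest, and the red points reach much farther from 0 than the blue.

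Genes that rose were mostly low at D4. Their median level, averaged per stage, went from 1.30 FPKM at D4 to 3.76 FPKM at D4H8, against 3.94 and 4.19 FPKM over all tested genes. They spanned more of the genome than tested genes at large, with a median of 35.1 kb against 19.1 kb, and 94.5% were annotated as protein-coding against 82.9%. These traits were not particular to rising genes, since the genes that fell had a median of 26.5 kb and were 98.2% protein-coding. Of the 711, 462 had their highest mean FPKM at D6, 183 at D5 and 66 at D4H8 itself, or 65.0%, 25.7% and 9.28%, against 33.8%, 17.0% and 16.9% of all tested genes. None could peak at D4, since they were chosen as higher than D4, while 32.3% of all tested genes did. The shares of all tested genes are thus not a matched comparison, and the choice of the 711 raises their shares at the later stages. The genes that fell started high (median 16.3 FPKM at D4 and 11.3 FPKM at D4H8), and 46 of the 56 were highest at D4, which their choice as lower than D4 favours (32.3% of all tested genes).

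Counts for the gene lists below stand beside the 4.06% of all tested genes called higher and the 0.32% called lower. Proneural bHLH factors, the transcription factors that commit progenitors to neurons, were mostly higher. Of the 10 tested members of this list 8 were called higher and none lower, with a median log2 fold change of 2.31, and 7 were called without both replicates 1. Neurog1 was at 4.15, 7.39 and 6.25 FPKM at D4 and 71.3, 37.9 and 36.6 FPKM at D4H8. It lies at chr13:56250478-56252163, - strand, of mm10 (ENSMUSG00000048904). The D4H8 libraries lay well above the D4 ones, with replicate 1 the highest, and the rise was 8.07-fold (log2 3.01 ± 0.32, adjusted p = 7.2e-05). Neurog2, the main proneural factor of the pMN domain, was at 5.63, 8.67 and 9.96 FPKM at D4 and 48.3, 41.2 and 43.8 FPKM at D4H8. Its D4H8 libraries were close together and none overlapped D4 (log2 2.43 ± 0.21, adjusted p = 2.6e-05). The downstream bHLH genes moved as well. Neurod4 was at 14.8, 18 and 11 FPKM at D4 and 99.6, 56.7 and 51.5 FPKM at D4H8 (log2 2.20 ± 0.26), and Neurod1 at 2.18, 3.04 and 3.77 FPKM at D4 and 26.4, 13.5 and 16.4 FPKM at D4H8 (log2 2.63 ± 0.26). The groups were separate for both, with adjusted p = 0.00015 and 3.6e-05. Nhlh1 and Nhlh2, bHLH genes of newborn neurons, rose by 2.50 ± 0.26 and 3.11 ± 0.32 log2 units (adjusted p = 5.4e-05 and 5.4e-05), Nhlh2 from 1.18, 2.61 and 1.71 FPKM to 24.1, 14 and 9.75 FPKM. Bhlhe22 was also called (log2 1.86 ± 0.48, adjusted p = 0.0411), and it was not called without D4 replicates 1, 2 or 3 or D4H8 replicates 1 or 3 (adjusted p from 0.06 to 0.157). The members that were not called were Atoh8 (log2 0.12 ± 0.32, adjusted p = 0.884) and Neurog3 (log2 -1.83 ± 0.70, adjusted p = 0.195), and the latter was at or under 1.14 FPKM in every library. Atoh1, Neurod2, Neurod6 and Ptf1a were too low to test.

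Among Notch ligands, the 3 Delta genes rose and the Jagged genes did not pass. Dll1, the main Delta of spinal progenitors, was at 5.94, 7.54 and 8.32 FPKM at D4 and 43.8, 28.3 and 33.8 FPKM at D4H8. It lies at chr17:15367354-15376872, - strand, of mm10 (ENSMUSG00000014773). No D4H8 library overlapped D4, and the rise was 4.73-fold (log2 2.24 ± 0.20, adjusted p = 2.6e-05). Dll3, a Delta that acts inside the cell and dampens Notch, was at 2.84, 6.71 and 5.82 FPKM at D4 and 45.6, 25.3 and 28.8 FPKM at D4H8, with replicate 1 the lowest at D4 and the highest at D4H8 (log2 2.68 ± 0.33, adjusted p = 0.00019). Dll4 was lower in level, at 0.91, 1.12 and 1.18 FPKM at D4 and 5.77, 3.67 and 4.35 FPKM at D4H8, with a like separation (log2 2.06 ± 0.23, adjusted p = 0.0001). Its annotated opposite-strand neighbour Gm14207 was also called higher, and since the counting was not stated to use strand, reads of the pair may be mixed. Dlk1, a non-canonical ligand, rose less (log2 0.59 ± 0.13, adjusted p = 0.0202) and was not called without D4 replicates 1 or 2 or D4H8 replicates 2 or 3 (adjusted p from 0.0536 to 0.0922). Jag1 had a log2 fold change of -0.43 ± 0.26 and Jag2 of -0.23 ± 0.21 (adjusted p = 0.438 and 0.618). In all, 4 of the 8 ligands were called higher and none lower (3 without both replicates 1).

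Of 21 Notch receptors and modulators, 5 rose and none fell, and 3 were called without both replicates 1. Mfng, a fringe glycosyltransferase that tunes which ligands a receptor answers, was at 5.58, 9.44 and 7.9 FPKM at D4 and 41.9, 27.6 and 23.7 FPKM at D4H8. It rose 3.99-fold with no overlap (log2 2.00 ± 0.22, adjusted p = 0.0001). Hes6, a Hes family member that opposes Hes1 rather than serving as a Notch effector, was at 11, 18.1 and 15.2 FPKM at D4 and 62.9, 48.9 and 43 FPKM at D4H8, again without overlap (log2 1.77 ± 0.19, adjusted p = 7.8e-05). Numbl, which encodes a Numb-like inhibitor of Notch signalling, was at 2.91, 4.22 and 4.81 FPKM at D4 and 10.4, 9.43 and 9.4 FPKM at D4H8 (log2 1.26 ± 0.15, adjusted p = 0.00016). The receptor gene Notch1 was at 3.81, 5.68 and 8.62 FPKM at D4 and 15.5, 11.1 and 14.7 FPKM at D4H8, and its groups did not overlap (log2 1.16 ± 0.26, adjusted p = 0.0196). That call was lost without D4 replicates 1 or 2 or D4H8 replicates 1 or 3 (adjusted p from 0.0506 to 0.104). The coactivator gene Maml3 had the smallest called change (log2 0.65 ± 0.14, adjusted p = 0.0178) and was not called without D4 replicates 1 or 2 or D4H8 replicate 1 (adjusted p from 0.0723 to 0.122).

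The genes that Notch activates were examined next. Of 6 tested Hes and Hey genes none was called higher and 1 was called lower. Hes5, the classical readout of Notch in the neural tube, was at 4.94, 10.9 and 13.7 FPKM at D4 and 15.9, 6.91 and 4.99 FPKM at D4H8. It lies at chr4:154960923-154962371, + strand, of mm10 (ENSMUSG00000048001). Replicate 1 was the lowest library at D4 and the highest at D4H8, the groups overlapped, and the log2 fold change was -0.07 ± 0.40 (adjusted p = 0.945), turning positive without D4 replicate 3, D4H8 replicate 2 or D4H8 replicate 3. The log2 fold change was -0.76 without D4H8 replicate 1 and -1.05 without both replicates 1 (adjusted p = 0.16 in the latter). Hes1 was at 20.6, 22.1 and 23.6 FPKM at D4 and 19.5, 16.3 and 16.7 FPKM at D4H8, so that all D4H8 libraries lay below the D4 ones, with a log2 fold change of -0.38 ± 0.17 that did not pass (adjusted p = 0.279). Hey1 overlapped between stages (log2 0.25 ± 0.28, adjusted p = 0.703), and its value turned negative without D4H8 replicate 1 and without both replicates 1. Hey2 was separate but low, at 0.76, 1.15 and 0.67 FPKM at D4 and 2.14, 1.82 and 1.41 FPKM at D4H8 (log2 1.02 ± 0.29, adjusted p = 0.0738). The called gene was Heyl, at 0.33, 0.46 and 0.40 FPKM at D4 and 0.15, 0.04 and 0.09 FPKM at D4H8 (log2 -2.0 ± 0.50, adjusted p = 0.0365), which was not called without D4 replicates 1, 2 or 3 or D4H8 replicates 2 or 3 (adjusted p from 0.0756 to 0.126). None of the 4 Id genes, whose products sequester bHLH partners, was called. Id1 went from 46.9, 45.3 and 38.2 FPKM to 28.9, 27.7 and 23.8 FPKM without overlap (log2 -0.76 ± 0.25, adjusted p = 0.129), and Id3 had a log2 fold change of -0.41 ± 0.18 (adjusted p = 0.257). At D5 Hes5 was at 0.55 ± 0.147 FPKM.

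**Figure D2:**
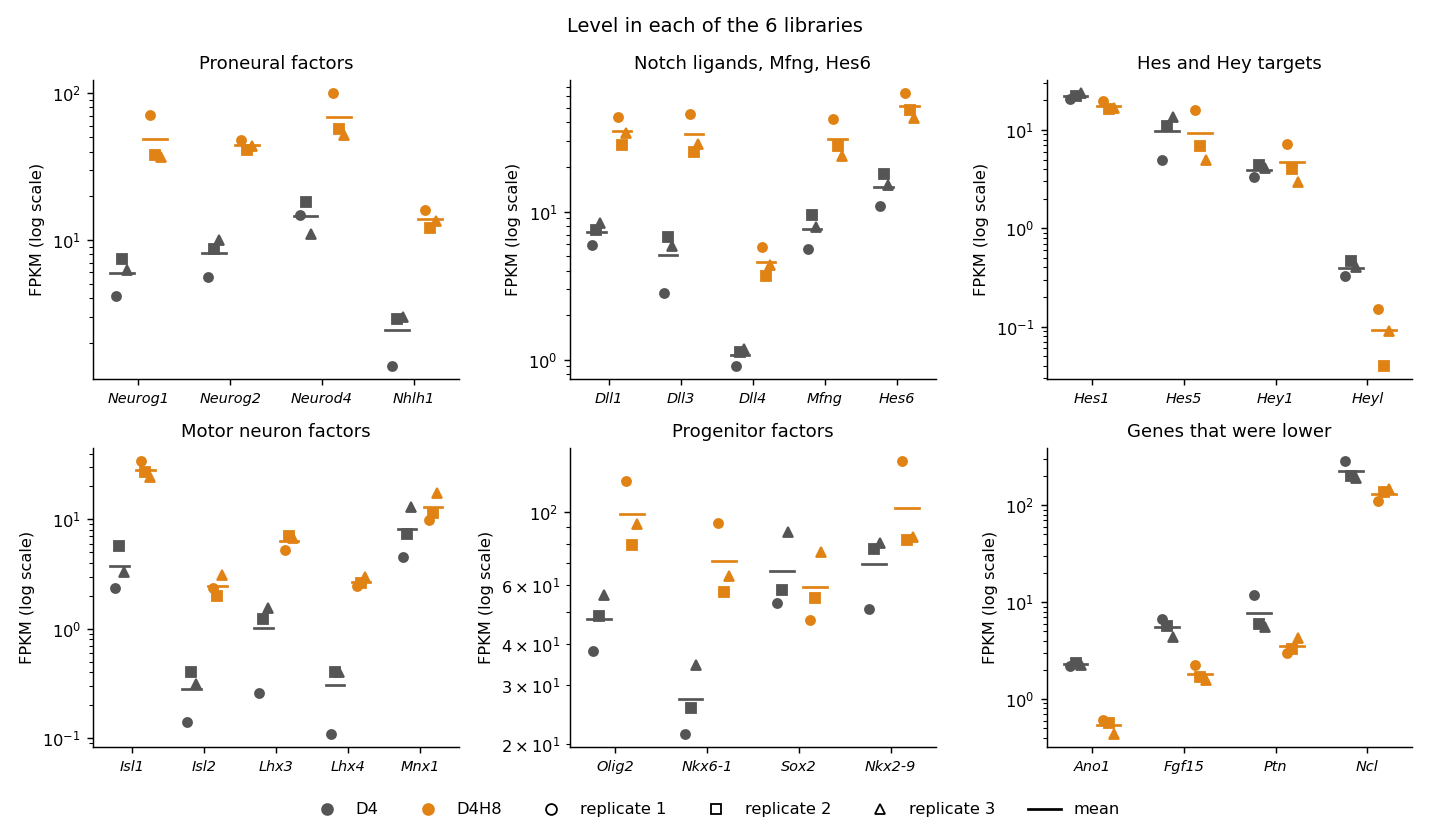
FPKM on a log axis for genes of 6 groups, with 1 point per library (circle, square and triangle for replicates 1, 2 and 3), grey for D4, orange for D4H8 and a bar at the mean. Proneural factors, Delta genes and most MN factors are separate between stages, Hes5 and Sox2 overlap, and replicate 1 often has the widest difference between its D4 and D4H8 points.

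Proneural factors bind E-boxes, so the windows of 250 bases before the annotated start were read for 3 genes that rose and for Hes5, which was not called. The first 3 are shown because each holds a motif and no transcript of its own gene is annotated inside the window. The sequences are from RefSeq on GRCm38.p6, 5′ to 3′ on the strand of the gene, and capitals mark CAGCTG (a palindrome) or CAGATG on either strand.
Gadd45g, chr13:51846425-51846674, + strand: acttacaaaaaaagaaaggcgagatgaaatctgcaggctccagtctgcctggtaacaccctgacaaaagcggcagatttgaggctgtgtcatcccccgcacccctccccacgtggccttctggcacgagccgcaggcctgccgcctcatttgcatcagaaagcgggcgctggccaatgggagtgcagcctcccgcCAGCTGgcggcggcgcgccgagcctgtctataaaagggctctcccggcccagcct
Hes6, chr1:91414039-91414288, - strand: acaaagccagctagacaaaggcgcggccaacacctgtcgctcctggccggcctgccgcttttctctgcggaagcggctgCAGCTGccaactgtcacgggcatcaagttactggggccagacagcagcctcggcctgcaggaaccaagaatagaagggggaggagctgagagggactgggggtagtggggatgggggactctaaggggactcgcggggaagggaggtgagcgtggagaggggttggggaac
Nhlh1, chr1:172057597-172057846, - strand: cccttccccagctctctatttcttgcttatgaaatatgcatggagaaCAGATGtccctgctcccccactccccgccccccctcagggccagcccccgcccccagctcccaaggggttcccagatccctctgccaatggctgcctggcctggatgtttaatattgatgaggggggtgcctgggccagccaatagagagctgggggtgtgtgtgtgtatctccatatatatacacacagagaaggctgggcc
Hes5, chr4:154960673-154960922, + strand: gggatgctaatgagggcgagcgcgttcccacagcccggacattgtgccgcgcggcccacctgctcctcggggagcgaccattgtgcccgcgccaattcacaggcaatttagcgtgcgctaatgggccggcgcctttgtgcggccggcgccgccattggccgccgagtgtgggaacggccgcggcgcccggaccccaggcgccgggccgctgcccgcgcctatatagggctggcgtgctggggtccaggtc
The motif began 55 bases before the start in Gadd45g, 171 in Hes6 and 203 in Nhlh1, and neither motif stood in the Hes5 window. Other forms of E-box were not searched. The Hes5 window does hold such a form, cacctg, and so does the Hes6 window. Of the 711 higher genes, 501 matched the promoter table by symbol with 693 windows, and 28.6% of these held at least 1 of the motifs. The share was 21.2% over 15329 windows of tested genes and 25.5% over all 32851 windows in the table. CAGCTG alone stood in 17.5% of windows of higher genes, 12.4% of those of tested genes, 13% of all windows and 4.08% of the 49 windows of lower genes. CAGATG stood in 13.3%, 10.2%, 14.4% and 8.16% of these. These shares describe letters in a window, not binding.

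Some progenitor factors of the ventral cord rose. Of 18 tested, 4 rose, none fell and the list median was -0.01. Nkx2-2, which marks the p3 domain next to the pMN, was at 0.61, 1.26 and 2.31 FPKM at D4 and 7.68, 3.94 and 5.32 FPKM at D4H8 (log2 2.02 ± 0.41, adjusted p = 0.0104). Nkx6-1, needed for MN identity, was at 21.4, 25.7 and 34.6 FPKM at D4 and 92.3, 57.1 and 63.8 FPKM at D4H8 (log2 1.35 ± 0.29, adjusted p = 0.0165). Both were separate between stages. Olig1 and Olig2, neighbours on chromosome 16, had log2 fold changes of 1.30 ± 0.32 and 1.02 ± 0.27 (adjusted p = 0.0309 and 0.048), Olig2 at 38, 48.4 and 56 FPKM at D4 and 124, 79.4 and 91.7 FPKM at D4H8. None of the 4 genes was called without both replicates 1. Leaving out 1 library, Nkx2-2 was not called without D4 replicate 2 or D4H8 replicate 1 (adjusted p from 0.0569 to 0.0636), Nkx6-1 without D4 replicates 1 or 2 or D4H8 replicate 1 (adjusted p from 0.0791 to 0.104), Olig1 without D4 replicates 1 or 2 or D4H8 replicates 1 or 3 (adjusted p from 0.0635 to 0.168) and Olig2 without D4 replicates 1, 2 or 3 or D4H8 replicates 1, 2 or 3 (adjusted p from 0.0529 to 0.277). Nkx2-9 was higher in every D4H8 library, at 51, 77 and 80.4 FPKM at D4 and 142, 82 and 84.1 FPKM at D4H8, but did not pass (adjusted p = 0.297). General neural progenitor genes gave 1 call in 15, which is near the 4.06% of all tested genes called higher. Vim, a filament protein of neuroepithelium and young neurons, was at 58.5, 84.5 and 60.9 FPKM at D4 and 253, 158 and 119 FPKM at D4H8 (log2 1.34 ± 0.26, adjusted p = 0.0072) and was not called without both replicates 1 (adjusted p = 0.108). Sox2 overlapped between the stages, at 53, 58.2 and 87 FPKM at D4 and 47.2, 54.9 and 75.6 FPKM at D4H8 (log2 -0.20 ± 0.32, adjusted p = 0.787), and so did Nes (log2 0.15 ± 0.20, adjusted p = 0.745).

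Most MN identity genes were higher after 8 hours. Of 12 homeodomain factors and cofactors of MNs, 8 were higher and none lower (median log2 fold change 2.02), and 5 were called without both replicates 1. Isl1 was at 2.36, 5.72 and 3.28 FPKM at D4 and 34, 27.2 and 24.4 FPKM at D4H8. It lies at chr13:116298281-116309689, - strand, of mm10 (ENSMUSG00000042258). The stages did not overlap and the rise was 7.4-fold (log2 2.89 ± 0.25, adjusted p = 2.2e-05). Lhx3, its partner in the MN hexamer complex, was at 0.26, 1.23 and 1.56 FPKM at D4 and 5.22, 6.99 and 6.71 FPKM at D4H8 (log2 2.64 ± 0.38, adjusted p = 0.00078). Gm27196, which overlaps Lhx3 on the opposite strand, was also called higher (log2 3.875), so reads of the pair may be mixed. Lhx4 and Isl2 came from under 0.5 FPKM in each D4 library. Lhx4 reached 2.47, 2.62 and 3 FPKM (log2 3.17 ± 0.31, adjusted p = 3.6e-05) and Isl2 2.36, 1.99 and 3.1 FPKM (log2 3.12 ± 0.35, adjusted p = 0.0001). Phox2a, a determinant of cranial motor and noradrenergic neurons, was at 1.38, 4.51 and 3.72 FPKM at D4 and 21.9, 16.8 and 14.4 FPKM at D4H8 (log2 2.47 ± 0.40, adjusted p = 0.0022), although an expressed gene on the opposite strand, Inppl1, overlaps it. Tbx20, a T-box gene of hindbrain motor neurons, rose from 0.14, 0.22 and 0.26 FPKM to 1.25, 0.73 and 0.62 FPKM (log2 2.07 ± 0.39, adjusted p = 0.0061, and 0.188 without both replicates 1). Mnx1, the MN gene also known as Hb9, was at 4.5, 7.31 and 12.9 FPKM at D4 and 9.85, 11.4 and 17.4 FPKM at D4H8. Its stages overlapped and it was not called (log2 0.62 ± 0.28, adjusted p = 0.295), and Ldb1, the LIM cofactor, had a log2 fold change of 0.36 ± 0.11 (adjusted p = 0.103).

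Both genes of the cholinergic locus on chromosome 14 rose. Slc18a3, the vesicular acetylcholine transporter gene, was at 0.20, 1.04 and 1 FPKM at D4 and 7.3, 5.89 and 5.89 FPKM at D4H8 (log2 3.13 ± 0.34, adjusted p = 7.8e-05). Chat, the gene of the enzyme that makes acetylcholine, was at 0.07, 0.51 and 0.10 FPKM at D4 and 1.39, 1.79 and 1.05 FPKM at D4H8 (log2 2.62 ± 0.43, adjusted p = 0.0025). Both were separate between the stages. Slc18a3 lies within the span of Chat on the same strand, so reads from one may enter the count of the other. Factors of spinal interneurons gave 4 calls higher among 19 tested and none lower. Prdm8, a histone methyltransferase family gene, was at 0.36, 0.35 and 0.72 FPKM at D4 and 6.12, 3.21 and 3.89 FPKM at D4H8 (log2 3.19 ± 0.29, adjusted p = 2.8e-05), with an expressed antisense transcript at its locus. Otp stayed at or under 0.53 FPKM (log2 2.69 ± 0.49, adjusted p = 0.0055, and 0.0614 without both replicates 1) and Foxp2 at or under 0.47 FPKM (log2 1.12 ± 0.28, adjusted p = 0.0384). Foxp2 was not called without D4 replicates 1, 2 or 3 or D4H8 replicates 1 or 2 (adjusted p from 0.0601 to 0.17). Of the list, 1 gene was called without both replicates 1.

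Transcription and splicing factors of general neuronal differentiation gave 18 calls higher among 28, and 13 without both replicates 1. Scrt2, a zinc finger repressor of newborn neurons, was at 0.39, 1.05 and 0.93 FPKM at D4 and 11.4, 6.41 and 5.58 FPKM at D4H8 (log2 3.32 ± 0.38, adjusted p = 0.00012). Insm1, a zinc finger gene of cells passing from progenitor to neuron, was at 3.48, 6.79 and 6.96 FPKM at D4 and 71.8, 33.7 and 34.8 FPKM at D4H8 (log2 3.01 ± 0.36, adjusted p = 0.00015). In both, D4H8 replicate 1 was the highest library by far, and no D4H8 library overlapped D4. Myt1 (log2 3.15 ± 0.32), Scrt1 (log2 2.80 ± 0.36), Onecut2 (log2 2.75 ± 0.32) and Ebf2 (log2 2.72 ± 0.30) followed with adjusted p from 4.8e-05 for Myt1 to 0.00029 for Scrt1. Srrm4, a neuronal splicing factor picked after its values were seen, was at 1.32, 1.96 and 1.92 FPKM at D4 and 12.6, 8.57 and 9.48 FPKM at D4H8 (log2 2.53 ± 0.18, adjusted p = 9.8e-06), with an expressed antisense transcript, Srrm4os. Rest, the repressor of neuronal genes outside neurons, was at 11.8, 12 and 16.6 FPKM at D4 and 8.68, 11.4 and 13.1 FPKM at D4H8. Its libraries overlapped (log2 -0.33 ± 0.28, adjusted p = 0.583). Tcf3, the E protein that pairs with proneural factors, was already high and was not called (log2 0.24 ± 0.13, adjusted p = 0.368).

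**Figure D3:**
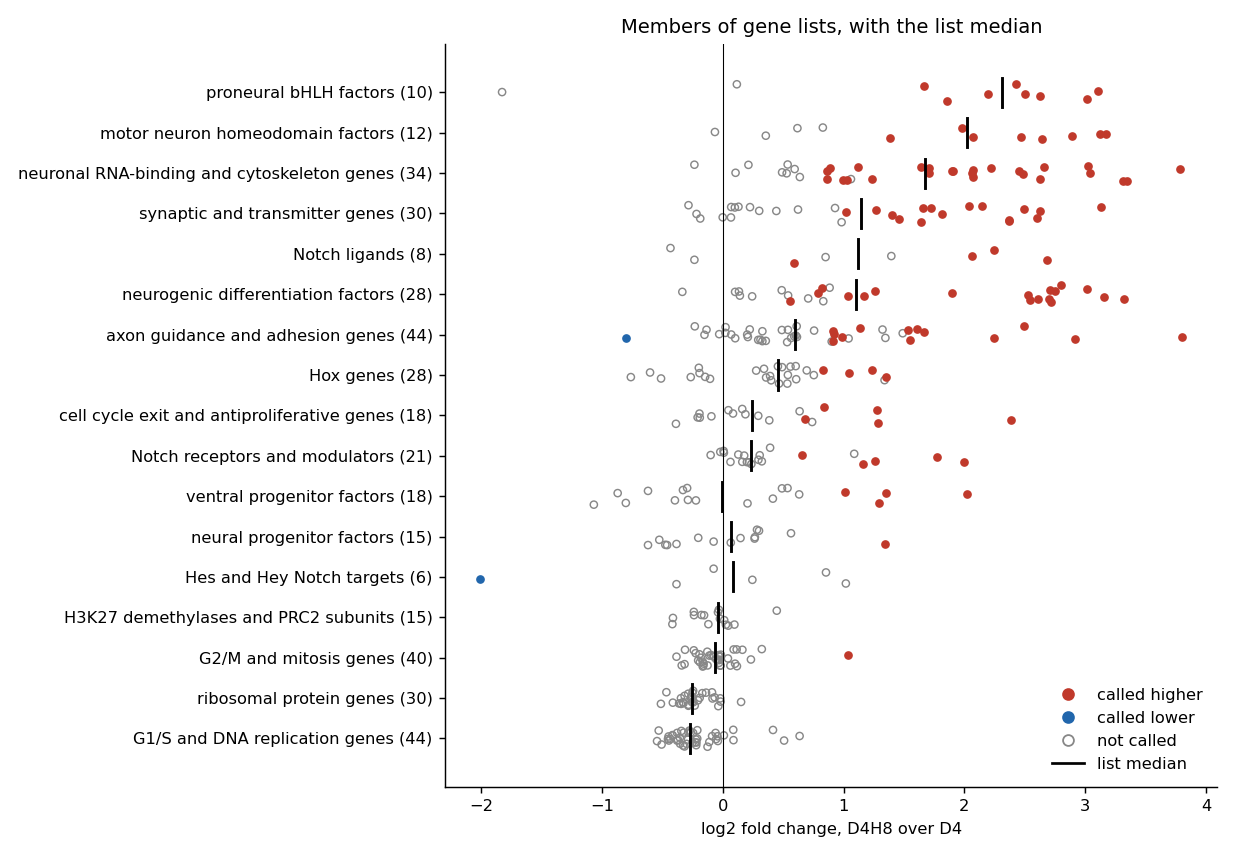
Log2 fold change (D4H8 over D4) of every tested member of 17 gene lists, 1 row per list with the number of tested members in brackets, filled red for called higher, filled blue for called lower, open for not called, and a black bar at the list median. The medians of proneural and MN factors lie above 2, and those of G1/S and ribosomal protein genes lie below 0.

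Some genes of cell cycle exit rose, while among the tested genes of the cycle itself Cdc25b alone was called. Of 18 antiproliferative genes, 5 were higher and none lower, and 3 were called without both replicates 1. Gadd45g, a growth arrest gene, was at 20.8, 30.8 and 32.4 FPKM at D4 and 172, 142 and 136 FPKM at D4H8. The rise was 5.23-fold, with no overlap (log2 2.39 ± 0.27, adjusted p = 0.00012). Cdkn1c, the gene of the CDK inhibitor p57, was at 20.3, 29.3 and 34.1 FPKM at D4 and 83.1, 60.7 and 63.9 FPKM at D4H8 (log2 1.28 ± 0.17, adjusted p = 0.00049). Btg2, a marker of neurogenic divisions, was at 14.6, 16.4 and 18.3 FPKM at D4 and 47.3, 35 and 41 FPKM at D4H8 (log2 1.28 ± 0.18, adjusted p = 0.00077). Rb1 (log2 0.84 ± 0.15, adjusted p = 0.0043) and Btg1 (log2 0.68 ± 0.16, adjusted p = 0.0253) moved less, and Btg1 was not called without D4 replicates 1 or 2 or D4H8 replicate 1 (adjusted p from 0.0761 to 0.139). Rb1 was not called without both replicates 1 (adjusted p = 0.118). Cdkn1b, the gene of p27, had a log2 fold change of 0.29 ± 0.15 (adjusted p = 0.333) and Ccnd2, the gene of cyclin D2, one of -0.21 ± 0.18 (adjusted p = 0.6). Of 44 genes of G1/S and DNA replication none was called in either direction, although the list median was -0.27 and 24 of the 44 had all D4H8 libraries below all D4 libraries, against 11.4% of all tested genes. Pcna was at 247, 217 and 176 FPKM at D4 and 183, 174 and 171 FPKM at D4H8 (log2 -0.34 ± 0.22, adjusted p = 0.469), while Rrm2 had a log2 fold change of 0.42 ± 0.24 (adjusted p = 0.403). Of 40 mitotic genes 1 was called. It was Cdc25b, the phosphatase gene that promotes entry to mitosis, at 13.8, 15.4 and 17.3 FPKM at D4 and 42.9, 26.9 and 28.2 FPKM at D4H8 (log2 1.04 ± 0.19, adjusted p = 0.0046), which has an overlapping opposite-strand gene and was not called without both replicates 1 (adjusted p = 0.0651). Top2a (log2 -0.16 ± 0.27, adjusted p = 0.803) and Ccnb1 (log2 -0.19 ± 0.29, adjusted p = 0.779) did not pass.

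The neuronal cytoskeleton and RNA-binding list had the most calls of any list, with 25 of 34 higher, none lower, and a median log2 fold change of 1.68. Without both replicates 1, 19 were called. Dcx, the microtubule protein of migrating neurons, was at 0.41, 0.73 and 0.56 FPKM at D4 and 7.91, 5.6 and 3.59 FPKM at D4H8 (log2 3.31 ± 0.29, adjusted p = 2.5e-05). Nefl, the light neurofilament gene, was at 2.29, 3.06 and 2.44 FPKM at D4 and 25.1, 23.9 and 17.1 FPKM at D4H8 (log2 3.04 ± 0.19, adjusted p = 3.8e-06), and Nefm, the medium one, at 0.78, 2.04 and 1.07 FPKM at D4 and 24.6, 17.4 and 12.3 FPKM at D4H8 (log2 3.79 ± 0.36, adjusted p = 3e-05). The stages were separate for all 3. Nefl and Nefm overlap on opposite strands of chromosome 14 in the annotation, so their counts may share reads. Rbfox1, a neuronal splicing regulator, came from at most 0.07 FPKM at D4 (log2 3.35 ± 0.46, adjusted p = 0.00051). Celf3 (log2 3.03 ± 0.30) and Stmn2 (log2 2.66 ± 0.31) had adjusted p = 3.7e-05 and 0.00013. Tubb3, the neuronal β-tubulin named after its values were seen, was at 26.2, 55 and 28.6 FPKM at D4 and 284, 204 and 141 FPKM at D4H8 (log2 2.48 ± 0.29, adjusted p = 0.00013). Stmn1 and Tubb2b, broadly expressed members at or above 93.1 FPKM in every library, were higher in all D4H8 libraries but did not pass (log2 0.64 ± 0.20 and 0.60 ± 0.16, adjusted p = 0.109 and 0.0582).

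Axon guidance and adhesion genes gave 13 calls higher and 1 lower among 44, and 9 higher without both replicates 1. Cntn2, the adhesion molecule TAG-1 of early spinal axons, had the largest fold change of the genes eligible to be named, at 0.66, 1.77 and 2.21 FPKM at D4 and 22.3, 19.6 and 23.4 FPKM at D4H8. It lies at chr1:132509427-132543256, - strand, of mm10 (ENSMUSG00000053024). The D4H8 libraries were close together and far above D4, and the rise was 14-fold (log2 3.80 ± 0.30, adjusted p = 1.6e-05). Slit2, the ligand of Robo receptors, was at 0.36, 0.49 and 0.62 FPKM at D4 and 2.21, 2.54 and 2.43 FPKM at D4H8 (log2 2.25 ± 0.15, adjusted p = 4.3e-06). L1cam (log2 2.50 ± 0.19), Plxna4 (log2 2.91 ± 0.24), Ncam1 (log2 1.66 ± 0.15) and Sema6d (log2 1.61 ± 0.27) rose with adjusted p from 1.5e-05 for L1cam to 0.0025 for Sema6d. Sema3a, a repulsive ligand, was the one that fell, from 1.43, 1.28 and 1.11 FPKM to 0.88, 0.74 and 0.67 FPKM (log2 -0.80 ± 0.19, adjusted p = 0.0248), and it was not called without D4 replicates 1 or 2 or D4H8 replicates 2 or 3 (adjusted p from 0.0661 to 0.171). Ntn1, the floor plate attractant netrin, was not called (log2 0.29 ± 0.16, adjusted p = 0.389). Of 30 synaptic and transmitter genes 16 were higher and none lower, 8 of them without both replicates 1, most from under 1 FPKM at D4. Snap25, a vesicle fusion protein, was at 0.19, 0.28 and 0.06 FPKM at D4 and 1.2, 1.04 and 0.62 FPKM at D4H8 (log2 2.37 ± 0.36, adjusted p = 0.0012). Sstr2, a somatostatin receptor, was at 0.74, 1.56 and 1.72 FPKM at D4 and 9.15, 7.52 and 7.91 FPKM at D4H8 (log2 2.60 ± 0.30, adjusted p = 0.00014). The glutamate receptor gene Gria2 stayed under 0.5 FPKM (log2 2.49 ± 0.48, adjusted p = 0.008) and was not called without D4 replicate 1 or D4H8 replicate 1 (adjusted p from 0.059 to 0.0597). The calcium channel gene Cacna1e and the anchoring protein gene Akap6, both among the 15 largest rises of genes with a mean of at least 100 counts, no overlap and no predicted-gene symbol, likewise stayed under 1 FPKM (log2 3.66 ± 0.54 and 2.98 ± 0.40, adjusted p = 0.001 and 0.00041).

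Patterning pathways gave calls to set beside the 4.06% of all tested genes that were higher and the 0.32% that were lower. Of 16 Sonic hedgehog response genes only Nkx2-2 and Nkx6-1, given above, were called, and Ptch1, the receptor that hedgehog induces, had a log2 fold change of 0.21 ± 0.14 (adjusted p = 0.476). Of 19 tested retinoic acid genes 1 was called, the retinoid-binding protein gene Crabp1, at 159.5, 256 and 125 FPKM at D4 and 699, 586 and 382 FPKM at D4H8 (log2 1.58 ± 0.28, adjusted p = 0.0044), which was not called without both replicates 1 (adjusted p = 0.101). Its relative Crabp2 overlapped between stages at 727, 445 and 383 FPKM at D4 and 391, 329 and 319 FPKM at D4H8 (log2 -0.66 ± 0.27, adjusted p = 0.221), and Cyp26a1, the retinoid-degrading enzyme, had a log2 fold change of -0.44 ± 0.22 (adjusted p = 0.344). Of 28 Hox genes 4 rose and none fell, with a list median of 0.46. Hoxb6 was at 21.6, 27.9 and 34.9 FPKM at D4 and 90.2, 66 and 63.1 FPKM at D4H8 (log2 1.35 ± 0.27, adjusted p = 0.0094), Hoxb5 had a log2 fold change of 1.05 ± 0.26, Hoxb8 of 0.83 ± 0.18 and Hoxa6 of 1.24 ± 0.33 (adjusted p = 0.0352, 0.0156 and 0.0494). None of the 4 was called without both replicates 1, and leaving out 1 library ended the call of Hoxb6 without D4 replicate 1 or D4H8 replicate 1 (adjusted p from 0.0565 to 0.0575), Hoxb5 without D4 replicates 1 or 2 or D4H8 replicate 1 (adjusted p from 0.107 to 0.228), Hoxb8 without D4 replicates 1 or 2 or D4H8 replicate 1 (adjusted p from 0.0569 to 0.102) and Hoxa6 without D4 replicates 1, 2 or 3 or D4H8 replicates 1, 2 or 3 (adjusted p from 0.0637 to 0.201). Of 34 Wnt pathway genes, 1 rose and 2 fell. The secreted Wnt antagonist genes Sfrp2, at 23.3, 22.2 and 31.2 FPKM at D4 and 14.7, 13.1 and 16 FPKM at D4H8, and Sfrp5, at 2.08, 1.82 and 2.27 FPKM at D4 and 0.43, 0.65 and 1.02 FPKM at D4H8, were lower (log2 -0.85 ± 0.15 and -1.65 ± 0.40, adjusted p = 0.0039 and 0.0291), and the transcription factor gene Sp8 was higher (log2 0.96 ± 0.23, adjusted p = 0.0312). Sfrp5 was not called without D4 replicates 1, 2 or 3 or D4H8 replicates 1 or 2 (adjusted p from 0.0641 to 0.174), Sp8 was not called without D4 replicates 1 or 2 or D4H8 replicates 1 or 3 (adjusted p from 0.0912 to 0.135), and Sfrp2 had adjusted p = 0.0576 without both replicates 1. Among 22 FGF and ERK genes, Fgf15 was lower, at 6.63, 5.68 and 4.33 FPKM at D4 and 2.23, 1.67 and 1.57 FPKM at D4H8 (log2 -1.66 ± 0.34, adjusted p = 0.0117), and was not called without D4 replicate 1 or D4H8 replicate 2 (adjusted p from 0.0556 to 0.0769). Dusp4, an ERK phosphatase gene, was higher (log2 1.15 ± 0.21, adjusted p = 0.0055, and 0.0929 without both replicates 1). None of 25 BMP and TGF-β response genes was called.

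The genes that fell were fewer and less stable to the loss of a library. Ano1, a calcium-activated chloride channel gene, was at 2.18, 2.38 and 2.27 FPKM at D4 and 0.61, 0.56 and 0.44 FPKM at D4H8. It lies at chr7:144588549-144751974, - strand, of mm10 (ENSMUSG00000031075). The replicates of each stage were close together and it fell by a factor of 4.33 (log2 -2.12 ± 0.27, adjusted p = 0.00028), a call that held in all 6 fits with 1 library left out and without both replicates 1 (adjusted p = 0.0054). Ptn, the growth factor pleiotrophin, was at 11.8, 5.93 and 5.56 FPKM at D4 and 3.02, 3.26 and 4.3 FPKM at D4H8 (log2 -1.24 ± 0.33, adjusted p = 0.0496). Ncl, the abundant nucleolar protein nucleolin, was at 284, 198 and 193 FPKM at D4 and 111, 135 and 146 FPKM at D4H8 (log2 -0.86 ± 0.21, adjusted p = 0.0361). In both, D4 replicate 1 was the highest and D4H8 replicate 1 the lowest library. Ptn was not called without D4 replicates 1 or 2 or D4H8 replicates 1, 2 or 3 (adjusted p from 0.0502 to 0.288), nor was Ncl without D4 replicate 1 or D4H8 replicates 1, 2 or 3 (adjusted p from 0.0598 to 0.192). The remaining genes of the 10 largest falls, among genes with a mean of at least 100 counts, no overlap and no predicted-gene symbol, were Gpatch4 (log2 -1.04, adjusted p = 0.0495), Mcrip2 (log2 -1.01, adjusted p = 0.0303), Glt1d1 (log2 -1.0, adjusted p = 0.0469), Arl4a (log2 -0.87, adjusted p = 0.0364) and Dmd, the dystrophin gene (log2 -0.85, adjusted p = 0.0191). Of these, Gpatch4 was not called without D4 replicates 1 or 2 or D4H8 replicates 1, 2 or 3 (adjusted p from 0.0708 to 0.273), Mcrip2 without D4 replicates 1, 2 or 3 or D4H8 replicates 1, 2 or 3 (adjusted p from 0.0502 to 0.163), Glt1d1 without D4 replicates 1, 2 or 3 or D4H8 replicates 1 or 2 (adjusted p from 0.0924 to 0.245), Arl4a without D4 replicates 1 or 2 or D4H8 replicates 1, 2 or 3 (adjusted p from 0.0619 to 0.193) and Dmd without D4 replicates 1 or 3 or D4H8 replicates 1 or 2 (adjusted p from 0.0564 to 0.109). With 1 library left out at a time the count of lower genes ran from 9, without D4 replicate 1 or D4H8 replicate 1, through 11 without D4H8 replicate 2 and 20 without D4 replicate 2, to 96 without D4 replicate 3, and 2 of the 56 genes were called in all 6 fits, against 328 of the 711 higher genes. The higher count was 384 without D4 replicate 1, 467 without D4 replicate 2 and 341 without D4H8 replicate 1.

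**Figure D4:**
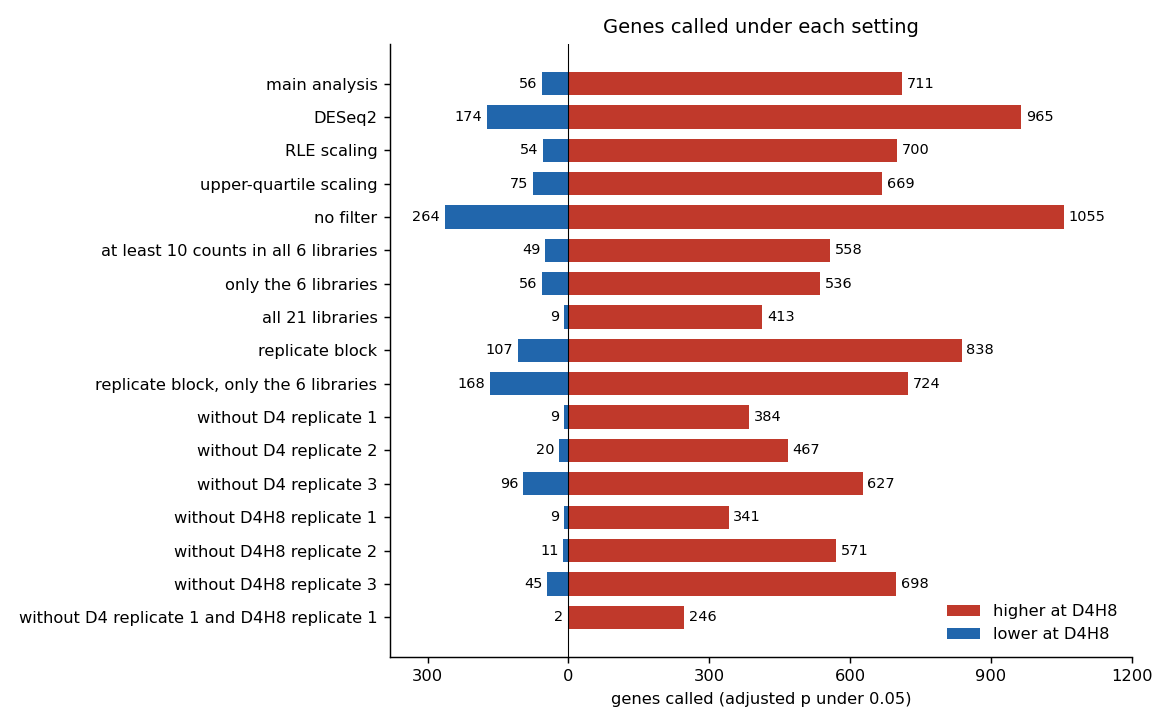
Number of genes called at an adjusted p under 0.05 in the main analysis and under each of 16 alternatives, with bars to the right for genes higher at D4H8 and to the left for genes lower. The higher count ran from 246 to 1055 and exceeded the lower count, which ran from 2 to 264, in every setting.

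The lists of chromatin regulators covered H3K27 demethylases, PRC2 subunits and the BAF complex only, and of these the BAF list alone held calls. None of 15 H3K27 demethylases and PRC2 subunits was called (list median -0.04). Kdm6b, the demethylase of H3K27me3 on which the study centres, was at 14, 16.1 and 22.5 FPKM at D4 and 24.2, 23.6 and 26 FPKM at D4H8, above D4 in each D4H8 library but not past the threshold (log2 0.45 ± 0.15, adjusted p = 0.141). An expressed antisense transcript, Kdm6bos, is annotated at its locus. Kdm6a, its X-linked relative, had a log2 fold change of 0.01 ± 0.12 (adjusted p = 0.967), whose sign turned under upper-quartile scaling, without D4H8 replicate 1 and without both replicates 1. Of 17 subunits of the BAF remodelling complex, which swaps subunits as neurons form, 3 rose, against 4.06% of all tested genes, and none fell, and 1 was called without both replicates 1. Actl6b, the neuronal subunit BAF53b, rose from 0.03, 0.07 and 0.03 FPKM to 0.32, 0.30 and 0.11 FPKM (log2 2.52 ± 0.47, adjusted p = 0.0065), Bcl7a was at 7.52, 7.93 and 8.26 FPKM at D4 and 17.6, 13.3 and 14.9 FPKM at D4H8 (log2 0.90 ± 0.14, adjusted p = 0.0018), and Dpf3, the neuronal BAF45c, stayed at or under 0.53 FPKM (log2 1.34 ± 0.35, adjusted p = 0.0469). Actl6b was not called without D4 replicate 1 or D4H8 replicate 1 (adjusted p from 0.0519 to 0.0597), nor Dpf3 without D4 replicates 1 or 3 or D4H8 replicates 1 or 3 (adjusted p from 0.0895 to 0.319). Actl6a, the progenitor counterpart of Actl6b, was not called (log2 -0.19 ± 0.13, adjusted p = 0.5).

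Stress and housekeeping lists are given beside the 4.38% of all tested genes that were called. No gene was called among 36 of hypoxia and glycolysis, 32 of the integrated stress response, 19 of NRF2, 8 metallothionein and zinc transporter genes, 17 survival and death genes, 30 ribosomal protein genes or 35 respiratory chain subunits. Of 28 chaperones, Xbp1 was called (log2 0.42 ± 0.11, adjusted p = 0.0434), and of 34 sterol and fatty acid genes, Mvd (log2 0.48 ± 0.12, adjusted p = 0.029), although 33 of those 34 had a positive value. Xbp1 was not called without D4 replicates 1, 2 or 3 or D4H8 replicates 1, 2 or 3 (adjusted p from 0.0587 to 0.189), nor Mvd without D4 replicates 1 or 3 or D4H8 replicates 1 or 2 (adjusted p from 0.0613 to 0.146). Among 26 p53 targets 3 rose and 2 fell. Plk3, a polo-like kinase gene, was at 8.8, 15.4 and 17.5 FPKM at D4 and 96.2, 65.4 and 61.6 FPKM at D4H8 (log2 2.40 ± 0.23, adjusted p = 3.4e-05) and Trp53inp2, an autophagy gene, rose by 1.40 ± 0.23 log2 units (adjusted p = 0.0026), with Btg2 the third. Ccng1 (log2 -0.56 ± 0.12, adjusted p = 0.0135) and Aen (log2 -0.46 ± 0.11, adjusted p = 0.0306) were lower, and were not called without D4 replicate 1 or D4H8 replicates 1 or 2 (adjusted p from 0.0539 to 0.0917) and without D4 replicates 1, 2 or 3 or D4H8 replicates 1, 2 or 3 (adjusted p from 0.0594 to 0.177) respectively. Of 29 immediate early genes Btg2 alone was called.

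Markers of the MN lineage, the labelled cell type, were detected at both stages, with 11 of 12 higher and none lower (9 higher without both replicates 1). The 11 genes also count in lists above, so they are not further evidence. The markers summed to 99.8 to 156.8 FPKM at D4 and 409.2 to 625.3 FPKM at D4H8. Most of each sum came from the neuronal gene Tubb3 and the progenitor factors Olig2 and Nkx6-1, whose levels are given above. Among the markers of other cells 3 genes were called, where 4.38% of all tested genes were. Pluripotency markers summed to 266.2 to 438.2 FPKM at D4 and 127.9 to 359.2 FPKM at D4H8, lowest in replicate 1 at each stage, with 1 of 17 called, Lin28a, at 115, 87.4 and 108 FPKM at D4 and 54.7, 65.1 and 76.2 FPKM at D4H8 (log2 -0.73 ± 0.16, adjusted p = 0.016), which was not called without D4 replicate 1 or D4H8 replicates 1 or 2 (adjusted p from 0.0626 to 0.108). Fibroblast and mesenchyme markers, which feeder cells would bring, summed to 69.3 to 88.6 FPKM at D4 and 79.7 to 104.2 FPKM at D4H8 with none of 20 called. Endoderm markers summed to 167.8 to 193.9 and 164.9 to 229.2 FPKM (none of 10 called), floor plate markers to 40.8 to 53.2 and 54.0 to 59.9 FPKM (none of 9) and neural crest markers to 6.00 to 7.45 and 5.44 to 7.08 FPKM (none of 8). Endothelial and blood markers summed to 2.89 to 5.77 and 4.53 to 5.95 FPKM, with 1 of 10 called (Kdr, log2 1.91 ± 0.42, adjusted p = 0.0183) and 1 of 14 members at 0 in every library. Glial markers summed to 8.08 to 11.1 and 8.73 to 12.5 FPKM, with 1 of 7 called (Mbp, log2 0.62 ± 0.13, adjusted p = 0.0152). Kdr was not called without D4 replicate 1 or D4H8 replicate 1 (adjusted p from 0.0941 to 0.106), nor Mbp without D4 replicates 1 or 2 or D4H8 replicate 1 (adjusted p from 0.0584 to 0.0827). The part of these other cells in the changes above was not tested.

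The genes that rose in the 8 hours took different courses over the next days, which are given as levels only, since the later steps share the D4H8 libraries. Neurog1 went from 48.6 ± 19.7 FPKM at D4H8 to 14.3 ± 2.69 at D5 and 1.08 ± 0.559 at D6. Dll1 went from 35.3 ± 7.88 to 13.8 ± 1.87 and 10.8 ± 2.18 FPKM, and Gadd45g from 149.8 ± 19.1 to 77.2 ± 19.9 and 8.92 ± 3.84 FPKM. These, with Neurog2, Neurod4, Dll4, Mfng, Btg2 and Olig2, were highest at D4H8. Dll3, Nhlh2, Lhx3 and Cntn2 were highest at D5, Lhx3 with 23.3 ± 4.81 FPKM at D5 and 3.24 ± 0.528 FPKM at D6, and Cntn2 with 186 ± 14.3 and 60.2 ± 14.2 FPKM. Isl1 and Tubb3 had their highest means at D6, at 125 ± 9.61 and 1306 ± 74.7 FPKM.

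**Figure D5:**
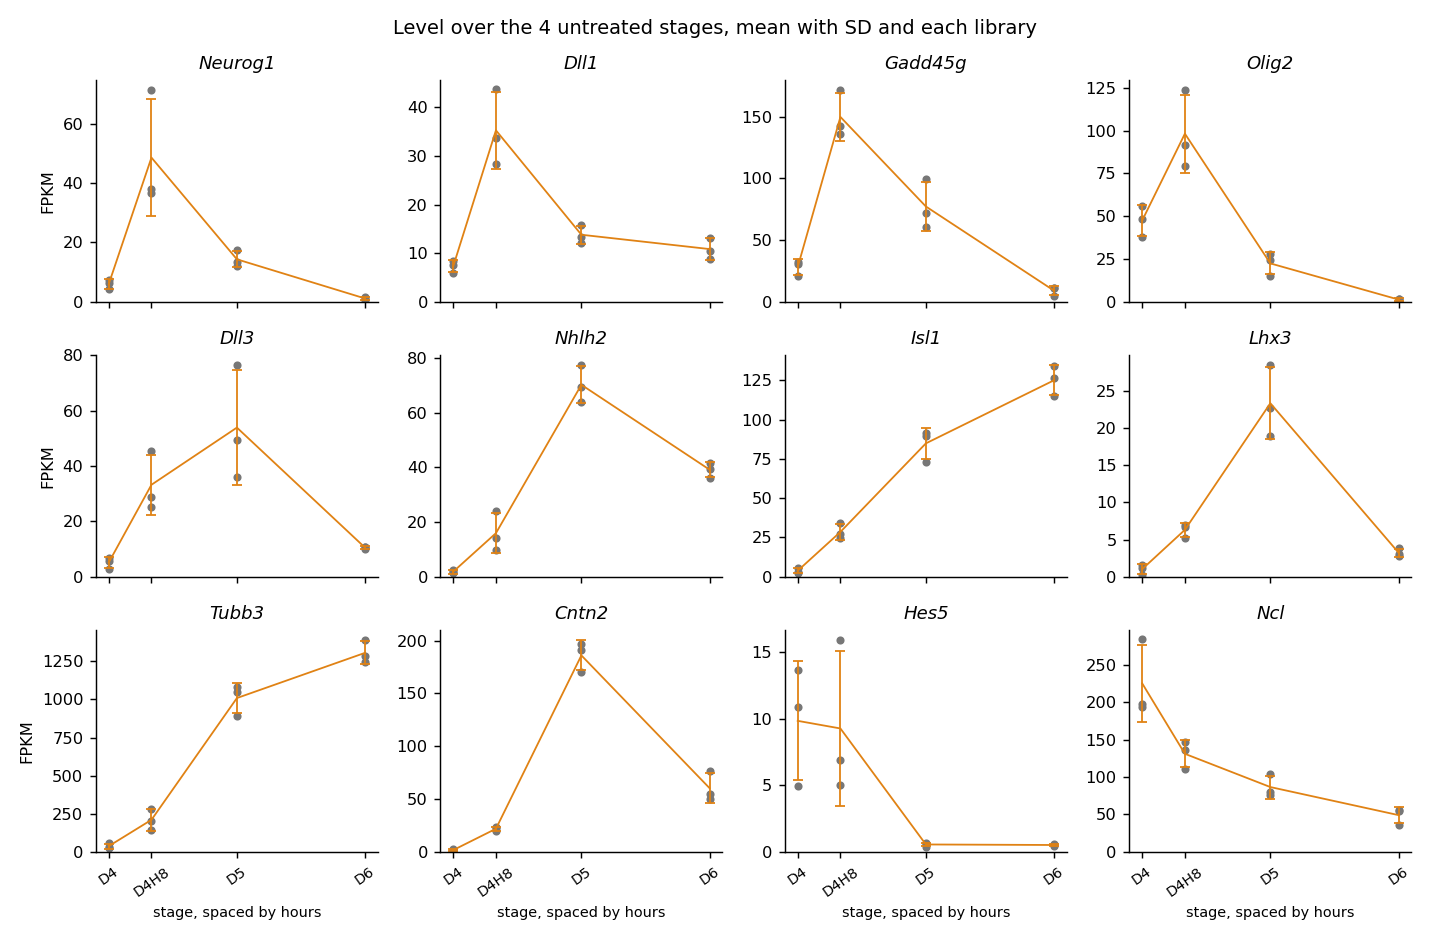
FPKM of 12 genes at the 4 untreated stages, spaced along the horizontal axis by time, with grey points for the 3 libraries of a stage and an orange line through the means with SD bars. Neurog1, Dll1, Gadd45g and Olig2 peak at D4H8, Dll3, Nhlh2, Lhx3 and Cntn2 at D5, Isl1 and Tubb3 at D6, while Hes5 and Ncl decline.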

How the data were processed

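RNA-seq counts of 21 libraries were used, of which the 3 D4 and 3 D4H8 untreated ones form this comparison. The authors' raw counts per gene were deposited as 1 table with 55400 mouse gene identifiers, and the deposited FPKM, made by the authors from those counts and exonic lengths, as another (recomputed here to within 0.005). Per the labels and the study's methods, HISAT2 placed the fastp-trimmed reads on mm10, SAMtools handled the alignments, HTSeq counted them per gene, and DESeq2 served for the study's own tests. Whether counting used strand was not given in the sources used here. Names came from GENCODE M21 (55140 identifiers matched, 260 not).

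Counts were tested with edgeR 4.0.16 in R 4.3.3 (glmQLFit and glmQLFTest, TMM scaling, filterByExpr with a minimum count of 10), fitting the 12 untreated libraries of 4 stages and taking the contrast D4H8 minus D4, with Benjamini-Hochberg adjustment over 17519 genes. The D5 and D6 libraries thus share in the estimate of the spread. The SE is the absolute log2 fold change divided by the square root of F. DESeq2 1.42.0, other scalings, filters, sample sets, replicate blocks and the loss of each library were tried, and leaving out both replicates 1 was added after seeing the data. Log2 fold changes come from the counts, and FPKM values are printed beside them without further scaling. Library sizes were 14982115 to 34383842 counts in the 6 libraries.

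Named genes were the 15 largest called rises and 10 largest called falls with a mean of at least 100 counts, no overlap between stages and no predicted-gene symbol, up to 6 higher, 4 lower and 4 uncalled members of each list, and 19 fixed genes. Others are marked as named after their values were seen. The comparison, genes and 43 lists were chosen with earlier results of these data known, and 5 further lists after these fits. Some genes that count in their lists are not reported here by name. No set test was run. Promoter windows were from RefSeq (GRCm38.p6), matched by symbol.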

Additional observations from a re-analysis of the deposited data

How the results depend on the processing

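No gene called higher or lower in the main analysis changed direction in any of the 16 alternatives. Nearly all of them were separate between the stages, so this was largely fixed in advance. The number called did move. The higher count of 711 was 413 with all 21 libraries in the fit, 341 to 698 with 1 library left out, and 246 without both replicates 1. The lower count of 56 was 174 with DESeq2, 264 without a filter, 9 with all 21 libraries, 9 to 96 with 1 library left out, and 2 without both replicates 1. The fit without a filter also called 1055 genes higher. Scaling by RLE or the upper quartile, a stricter filter and a fit of the 6 libraries alone kept both counts within 1.5 times.

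Replicate numbers are shared by the stages, but no source used here ties equal numbers to a shared culture. Deviations of same-numbered D4 and D4H8 libraries from their stage means correlated at 0.293, 0.0809 and 0.296. Each library correlated best with its own number, which is a hint from the data only. With a replicate block, 838 genes were higher and 107 lower over 12 libraries, and 724 higher and 168 lower over the 6 libraries.

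Of the 100 called genes named in the text, 64 kept their call in all 6 fits with 1 library left out and 55 were called without both replicates 1. With 1 library or both replicates 1 left out, uncalled genes that changed sign had log2 fold changes over the ranges given for Hes5 (-1.05 to 0.23), Hey1 (-0.30 to 0.50), Atoh8 (-0.10 to 0.31), Nes (-0.0604 to 0.35), Sox2 (-0.40 to 0.0205) and Kdm6a (-0.0627 to 0.0685), and upper-quartile scaling gave Kdm6a -0.019. The causes were not tested.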

Other observations

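Some gene groups were picked only after the fits had been seen, so their counts are descriptions. Of all tested genes, 4.06% were called higher and 0.32% lower. Of 8 tested nicotinic acetylcholine receptor subunits, 5 were called higher, none lower, and 4 without both replicates 1. Chrna3 was at 2.95, 5.46 and 3.72 FPKM at D4 and 30.3, 19.7 and 16.2 FPKM at D4H8 (log2 2.42 ± 0.26) and Chrnb4 at 2.79, 4.62 and 3.33 FPKM at D4 and 27.4, 16.5 and 12.7 FPKM at D4H8 (log2 2.37 ± 0.34). With Chrna5 (log2 1.30 ± 0.23) they form 1 cluster on chromosome 9, where the 3 genes lie within 2.33 kb of each other in turn. Chrnb2 (log2 2.01 ± 0.22) and Chrna4 (log2 1.84 ± 0.23) lie elsewhere, and Chrnb2 overlaps an expressed gene on the opposite strand, so its count is uncertain. Gm47877, on the opposite strand within the span of Chrnb4, was also called higher (log2 2.22), so reads of that pair may be mixed. The adjusted p of the 5 subunits in edgeR's quasi-likelihood test ran from 7.8e-05 for Chrnb2 to 0.005 for Chrna5, and Chrna5 had 0.151 without both replicates 1.

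Another group was the protocadherin cluster, which encodes adhesion proteins that give neurons a surface identity. Of 21 tested beta genes listed for this cluster 17 were called higher (median log2 fold change 2.04). Of 11 listed alpha genes 3 were higher, and of 21 gamma genes 2, with none lower in any of these lists. The alpha list was not complete, since it left out Pcdha11, which was also called higher (log2 2.26). Without both replicates 1 the counts of the 3 lists were 7, 1 and 0, and with 1 library left out the beta count ran from 9 to 18. The genes are similar in sequence, so reads may have been split among them. Among the genes that fell, 11 belonged to a list of 105 ribosome biogenesis genes, of which none rose and 100 had a negative value (median log2 fold change -0.36). Ncl, given above, was 1 of these. With 1 library left out the count ran from 0 to 23, and without both replicates 1 it was 0.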
